A study of Canis lupus familiaris with 33 samples.

Results

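Uroplakins are the membrane proteins that mark a differentiated urothelium, and 4 of their genes were examined here in canine invasive urothelial carcinoma (iUC) and in normal bladder mucosa. The genes were every entry of the TMM-normalized table with the symbol UPK1A (ENSCAFG00000006902), UPK2 (ENSCAFG00000012319), UPK3A (ENSCAFG00000000843) or UPK3B (ENSCAFG00000013651), which are 4 of 25096 genes. All 4 passed the filter on low values, and UPK1B was not analysed here. The samples were 29 tumors and 4 normals, each from a different dog. The tumors were naturally-occurring, high grade iUC of pet dogs, taken by cystoscopic biopsy before any treatment. The normals, named A to D, were mucosa dissected off the bladder wall of dogs that had no bladder disease as the reason for euthanasia. All libraries were sequenced in 1 batch, and the subtype of each tumor was not used here.

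The uroplakins are assembled as pairs in the endoplasmic reticulum of urothelial cells. UPK1A and UPK1B are tetraspanins, proteins that cross the membrane several times; UPK1A is known to pair with UPK2, and UPK1B with UPK3A or its relative UPK3B. The pairs are carried in fusiform vesicles to the apical membrane of the superficial umbrella cells, where they form the crystalline plaques of the asymmetric unit membrane and contribute to the barrier against urine. UPK3B is also known as a marker of mesothelium, and UPK2 and UPK3A are used in pathology to mark tumors of urothelial origin.

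Each deposited value is on a log2 scale on which 0 is the median of the gene over the 33 samples. Differences between samples can therefore be read, but not which uroplakin is the most abundant. The total count of a library is unknown, so the precision of a single value is not known. As a proxy for depth, between 3.01% and 4.06% of all genes were at their lowest value in a normal, against 14.7% to 32.6% in a tumor. No uroplakin was at a lowest value shared by several samples. In bulk RNA, fewer cells of a type and less RNA per cell cannot be told apart.

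UPK3A and UPK3B were higher in the tumors than in the normals, while UPK1A and UPK2 did not differ beyond the spread between samples. UPK3A was 3.61-fold and UPK3B 2.24-fold higher on average. A gene was called where limma gave an adjusted p of at most 0.05 and the groups differed at least 2-fold. Of 24471 genes tested, 10.7% were called higher in tumors and 45.8% lower. The median difference over all genes tested, tumor minus normal, was −0.84 on the log2 scale. This background depends on the filter. Under a stricter filter, which drops genes at their lowest value in most samples, the median was −0.009. Of 18418 genes tested there, 2595 were called higher and 5543 lower.

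UPK3A was −1.39, −1.38, −1.18 and −3.20 in normals A to D. In the tumors its lowest, median and highest values were −1.78, 0.06 and 1.03. Of the 29 tumors, 27 were above every normal. The difference, tumor minus normal, was 1.85 on the log2 scale (SE 0.36, limma adjusted p = 3.05e-05). Without normal D, the lowest of the normals, the difference was 1.38 with a limma adjusted p of 0.00197, and the gene was still called.

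UPK3B was −1.12, −0.51, −0.91 and −2.02 in normals A to D. Its lowest, median and highest values in the tumors were −1.14, 0.05 and 0.98, so that the groups overlapped, with 23 of 29 tumors above every normal. The difference was 1.16 (SE 0.32, limma adjusted p = 0.00181). This call rested on normal D and on the scaling: the difference was 0.87 without normal D (limma adjusted p = 0.0323) and 0.86 in the DESeq-normalized table (limma adjusted p = 0.0176), in both cases under 2-fold.

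UPK2 was nearly equal in normals A, B and C, at 0.38, 0.35 and 0.36, and was −2.14 in normal D. The tumors overlapped the normals, with 7 of 29 above every normal, a lowest value of −2.00, a median of −0.05 and a highest value of 0.97. The difference was 0.04 (SE 0.44, limma adjusted p = 0.935). Without normal D it was −0.58 with a limma adjusted p of 0.259, so that neither its size nor its direction was fixed by these samples.

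UPK1A was 0.02, −0.04, 0.36 and −1.27 in normals A to D, and again normal D was the lowest. Its lowest, median and highest values in the tumors were −4.65, 0.00 and 1.06. The difference was 0.03 (SE 0.54, limma adjusted p = 0.962). It turned to −0.31 without normal D and to −0.27 in the DESeq-normalized table, and was not called in either.

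**Figure D1:**
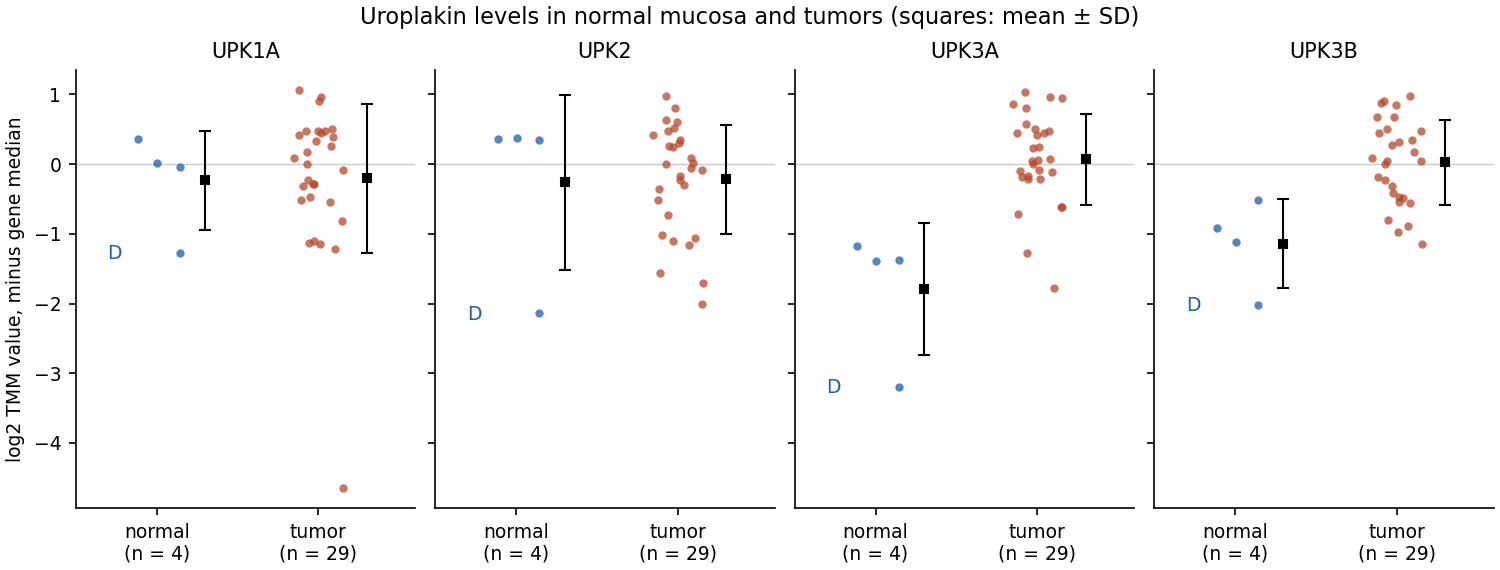
Log2 TMM value minus the gene median (vertical axis) of the 4 uroplakins in 4 normals (blue) and 29 tumors (red), 1 point per sample, with the mean ± SD as a square and bar. Normal D, marked, is the lowest normal for every uroplakin, and for UPK3A 27 of 29 tumors lie above every normal.

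The makeup of the samples differed between the groups in genes of other cell types. The paper reports a high epithelial cellularity for every tumor included. All 11 epithelial genes tested were higher in the tumors (10 in the DESeq-normalized table), with a median difference of 1.62; among them the tight junction gene CLDN7 differed by 2.37 (SE 0.29), the adhesion gene EPCAM by 2.18 (SE 0.36) and E-cadherin, CDH1, by 2.15 (SE 0.28). All 8 smooth muscle genes were lower, with a median difference of −5.87, led by the smooth muscle actin ACTG2 at −7.05 (SE 0.64) and followed by TPM2 at −6.28 and the myosin heavy chain MYH11 at −6.13. The mean over the smooth muscle genes was 4.31 to 6.24 in the normals and −1.47 to 3.33 in the tumors. Of 8 fibroblast genes 6 were lower and none higher (median −2.81), with COL1A1 at −3.04. Endothelial genes had a median of 0.03 with 0 of 8 called, and the endothelial marker PECAM1 differed by −0.30. Of 12 leukocyte genes 1 was higher and 1 lower (median 0.21), with the leukocyte marker PTPRC at 0.69 and not called. The samples labelled as normal mucosa thus held RNA of smooth muscle and stromal genes. Normal D had the highest mean over the smooth muscle genes (6.24) and the lowest over the epithelial genes (−2.46, against −1.42 in the highest normal), and it was also the normal with the least of all 4 uroplakins. The part of these differences in the uroplakin values on the deposited scale was not tested.

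The uroplakins were therefore also taken relative to the mean of the 11 epithelial genes in the same sample, a choice made after the data were seen. On this scale UPK1A and UPK2 were lower in the tumors, and UPK3A and UPK3B did not pass the test. In this setting 0.319% of all genes were called higher and 81.1% lower, and the median difference over all genes was −2.60, so that being lower is the usual result on this scale and sets neither gene apart. UPK1A was 1.47, 1.38, 1.78 and 1.19 above the epithelial mean in normals A to D, and from −4.22 to 1.25 with a median of −0.22 in the tumors. The difference was −1.73 (SE 0.51, limma adjusted p = 0.00211), with 28 of 29 tumors below every normal. UPK2 was 1.84, 1.77, 1.79 and 0.32 above it in normals A to D, and from −1.69 to 0.89 with a median of −0.28 in the tumors. The difference was −1.72 (SE 0.37, limma adjusted p = 6.94e-05), with 24 of 29 tumors below every normal. Without normal D, 29 of 29 tumors lay below every normal for both genes.

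UPK3A, in contrast, was 0.07, 0.04, 0.25 and −0.74 relative to the epithelial genes in normals A to D, and from −2.41 to 1.30 with a median of 0.04 in the tumors. The difference was 0.09 (SE 0.37, limma adjusted p = 0.812), with 10 of 29 tumors above and 3 below every normal. Without normal D it was −0.12 with 10 above and 16 below, a value with no test, so its direction was not fixed. UPK3B was 0.33, 0.91, 0.52 and 0.43 in normals A to D and from −1.16 to 1.17 in the tumors, a difference of −0.60 (SE 0.36, limma adjusted p = 0.112).

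The uroplakins were also compared with each other within each sample, again after the data were seen. Relative to UPK2, UPK3A was −1.77, −1.73, −1.54 and −1.06 in normals A to D and between −0.73 and 1.62 in the tumors, with a median of 0.14. All 29 tumors were above every normal, with and without normal D, and the groups did not overlap. The difference, which tests whether UPK3A and UPK2 changed unequally, was 1.81 or 3.50-fold (SE 0.43, limma adjusted p = 4.95e-04). Relative to UPK2, 6.3% of all genes were called higher and 41.4% lower in the tumors. Of the 11 epithelial genes, 10 were called higher and 0 lower on this scale (median 1.58). Of 13 transcription factors of urothelial differentiation, 9 were higher and 0 lower (median 1.23). A rise relative to UPK2 was thus shared by most epithelial genes. UPK3B relative to UPK2 was −1.51, −0.86, −1.27 and 0.12 in normals A to D and −1.27 to 2.48 in the tumors, with 15 of 29 tumors above every normal. The difference of 1.12 was not called (SE 0.51, limma adjusted p = 0.0686). Without normal D it was 1.45, with 25 of 29 tumors above every normal, a value with no test. UPK1A relative to UPK2, its partner, differed between the groups by −0.01 (SE 0.52, limma adjusted p = 0.987) and ranged from −2.95 to 1.58 among the tumors. Of these, 3 were above and 8 below every normal. Without normal D the difference was 0.27, with 16 tumors above and 8 below every normal, again a value with no test.

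**Figure D2:**
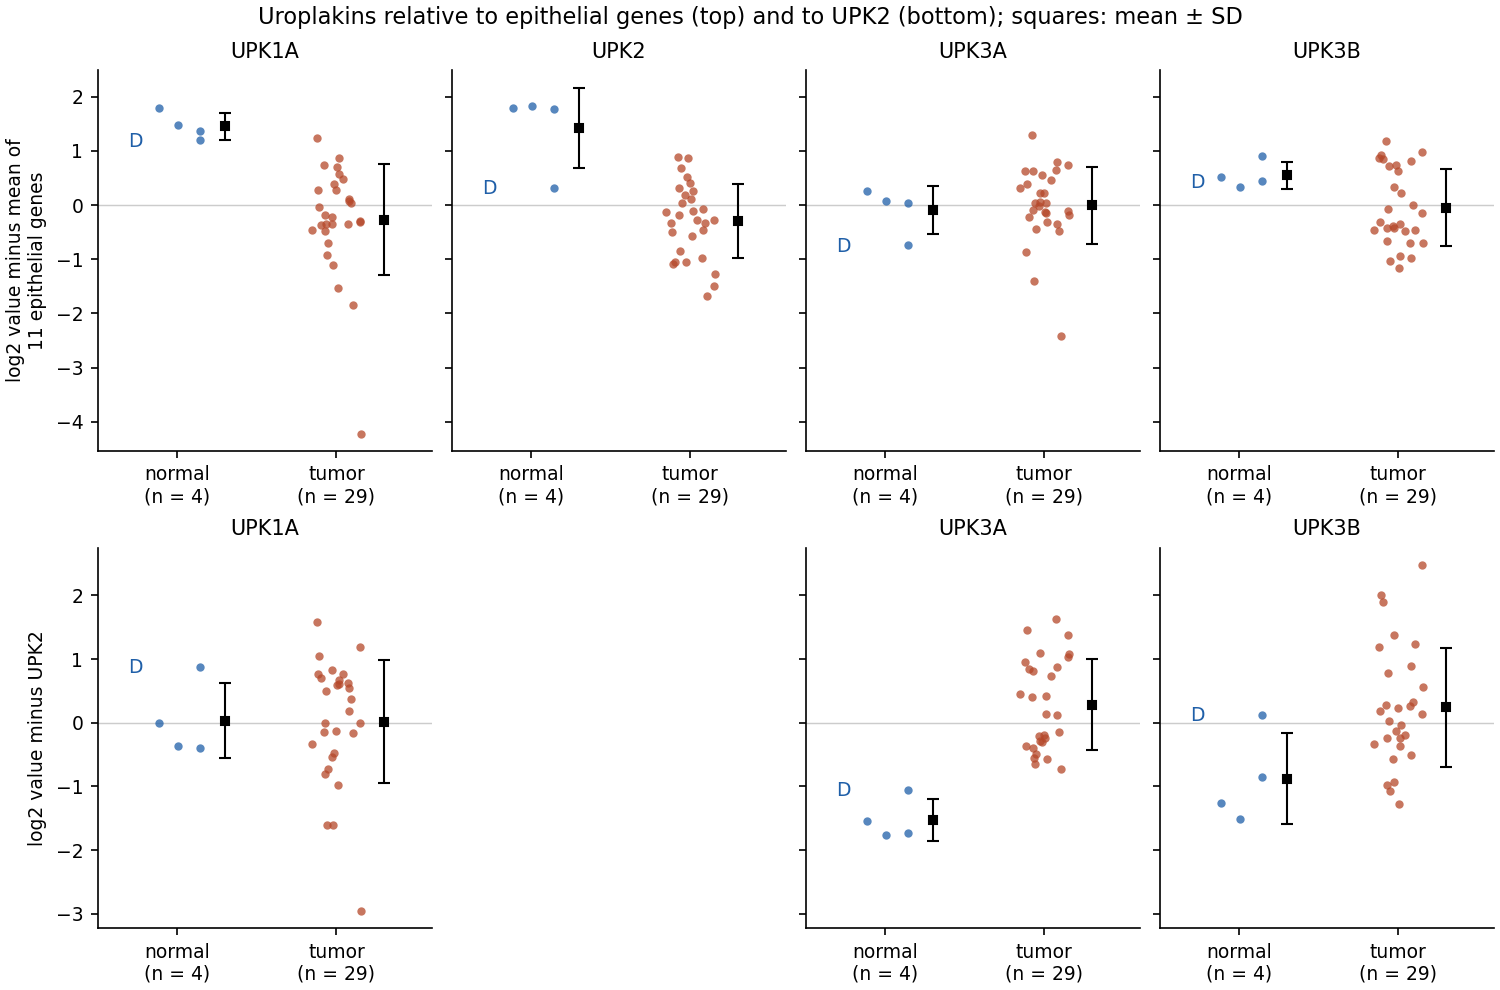
Log2 value of each uroplakin minus the mean of 11 epithelial genes (top) or minus UPK2 (bottom) in 4 normals (blue) and 29 tumors (red), 1 point per sample, with the mean ± SD as a square and bar. Relative to epithelial genes, 28 of 29 tumors lie below every normal for UPK1A, and relative to UPK2 all 29 tumors lie above every normal for UPK3A.

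Other genes of uroplakin biology were read beside these values on the deposited scale. Of 13 transcription factors of urothelial differentiation, 9 were higher in the tumors and 0 lower, with a median difference of 1.28. They included OVOL1 (2.48, SE 0.38), ELF3 (2.27, SE 0.28) and KLF5 (1.94, SE 0.25), all epithelial regulators. Of 7 genes of uroplakin vesicle transport, 3 were higher and 0 lower (median 1.12): MAL, a raft protein of apical transport, by 2.45 (SE 0.29), the motor protein MYO5B by 1.61 (SE 0.27) and SYTL2, a RAB27 effector, by 1.53 (SE 0.36). SNX31, a sorting nexin that binds uroplakins, differed by 0.58 (SE 0.56) and was not called.

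In the tetraspanin family, to which UPK1A belongs, 5 of 18 other genes were higher and 2 lower (median 0.54). The highest were TSPAN17 at 1.59 (SE 0.28) and CD63, a tetraspanin of late endosomes, at 1.49 (SE 0.21). The lowest was TSPAN2 at −2.75 (SE 0.80). UPK1A, at 0.03, was below the median of its family.

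Of 15 other genes of superficial and intermediate urothelial cells, 8 were higher in the tumors and 3 lower (median 1.09). Some of the higher ones, such as KRT19, are also among the epithelial genes, so these lists overlap. PSCA, a surface antigen, was higher by 3.30 (SE 0.68), and SLC14A1, the urea transporter, by 1.82 (SE 0.33). The lower genes included KRT20, the keratin of umbrella cells, at −3.75 (SE 1.09), and SPINK1, a protease inhibitor, at −2.75 (SE 0.26). KRT20 was at its lowest value in 9 tumors and SPINK1 in 27, so their true differences may be larger. Of 12 genes of basal and squamous cells 1 was higher, TGM1, and 1 lower, PI3 (median 0.14), while in the DESeq-normalized table none was higher and 2 were lower (median −0.15). The superficial cell genes thus moved in both directions on the deposited scale. Relative to the epithelial genes, the differentiation factors had a median difference of −0.49 (0 of 13 higher, 3 lower), the transport genes −0.64 (0 of 7 higher, 1 lower), the tetraspanins −1.22 (0 of 18 higher, 9 lower) and the superficial cell genes −0.67 (1 of 15 higher, 5 lower), against 81.1% of all genes called lower on this scale and a median of −2.60. The counts of these lists thus depend on the scale. Of the 13 factors, 6 were higher and none lower in the DESeq-normalized table.

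UPK3B was read beside mesothelial genes because mesothelium is known to express it. Of 11 such genes, 7 were lower in the tumors and 1 higher, KRT19, which epithelium also expresses (median −2.17), against 45.8% of all genes called lower. In the DESeq-normalized table none was higher and 8 were lower. WT1, a defining marker of mesothelium, differed by −6.47 (SE 0.81) and was at its lowest value in 18 of 29 tumors. UPK3B went the other way, being higher in the tumors. Over the tumors, UPK3B and the mean of the mesothelial genes had r = 0.088 (permutation p = 0.650) and Spearman's rho 0.089 (permutation p = 0.645). Without the 2 tumors farthest from the median of that mean, r was 0.054.

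The 4 uroplakins varied among the tumors near or above the middle of all genes, depending on the measure of spread. The SD over the 29 tumors was 1.07 for UPK1A, 0.78 for UPK2, 0.65 for UPK3A and 0.61 for UPK3B, and 78.1%, 60.2%, 50.7% and 46.7% of all genes, in that order, had a lower SD. By the scaled median absolute deviation the spread was 0.70, 0.69, 0.56 and 0.69, and 67.8%, 67.3%, 60.0% and 67.5% of genes had a lower one. The SD of UPK1A rested on 1 tumor. In tumor Da6 UPK1A was −4.65, the next lowest tumor was at −1.22, and without Da6 the SD was 0.65, with 50.9% of genes below it. Differences among the tumors therefore lay mostly within 3 units for each gene: UPK2 ranged over 2.97, UPK3A over 2.81 and UPK3B over 2.11.

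Tumors low in one uroplakin were not always low in the others. Da6 was the only tumor among the lowest 8 for all 4 genes, at −4.65 for UPK1A, −1.70 for UPK2, −0.62 for UPK3A and −1.14 for UPK3B. A further 3 tumors were among the lowest 8 for 3 genes, and 11 tumors were among the lowest 8 for none. At the other end 1 tumor was among the highest 8 for all 4 genes. Tumor JE had the lowest UPK2, −2.00, and a UPK3B of 0.48, above the median. Tumor 10 had a UPK1A of −1.13, the fourth lowest, and a UPK2 of 0.48.

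**Figure D3:**
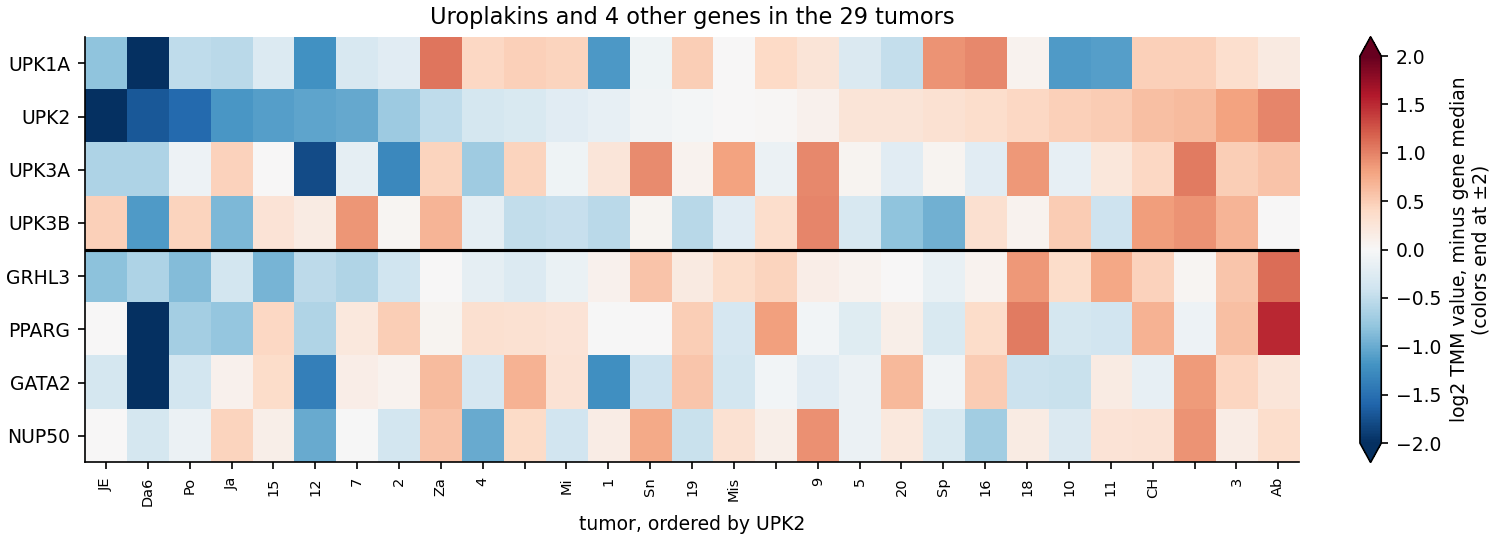
Log2 TMM values minus the gene median (color, ending at −2 and 2) of the 4 uroplakins and of GRHL3, PPARG, GATA2 and NUP50 in the 29 tumors, ordered from the lowest UPK2 (left) to the highest (right). Names are given for all but 3 tumors. Tumor Da6, second from the left, is low in every uroplakin, and GRHL3 is below 0 in the 8 tumors with the lowest UPK2.

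The 6 pairs of uroplakins had positive but modest correlations over the tumors, and no pair held under every setting. The p-values are from two-sided permutation tests, adjusted over 42 relations (these 6 pairs and 36 relations of a uroplakin with a gene list or component). UPK2 and UPK3A had r = 0.515 (permutation p = 0.00410, adjusted 0.0428) and rho = 0.478 (permutation p = 0.00959, adjusted 0.0869). UPK1A and UPK2, the partners, had r = 0.487 (permutation p = 0.00611, adjusted 0.0428) and rho = 0.385 (permutation p = 0.0395, adjusted 0.151). Without the 2 tumors farthest from the median of the first gene, r fell to 0.444 for UPK2 with UPK3A (permutation p adjusted 0.184). For UPK1A with UPK2 it fell to 0.293 (permutation p adjusted 0.521), and neither pair then passed the correction. Leaving out the most extreme tumors narrows the range of the gene, which can by itself lower r.

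The remaining 4 pairs did not pass the correction by either measure. UPK1A had r = 0.370 with UPK3A (permutation p = 0.0543, adjusted 0.120) and 0.359 with UPK3B (permutation p = 0.0484, adjusted 0.113), and the latter was 0.115 without Da6. Their rho values were 0.336 (permutation p = 0.0755) and 0.188 (permutation p = 0.329). UPK3B had r = 0.109 with UPK2 (permutation p = 0.573; rho 0.169, p = 0.381) and 0.160 with UPK3A (permutation p = 0.410; rho 0.156, p = 0.419), although UPK3A and UPK3B were the genes that were higher in the tumors. Without the 2 farthest tumors these 4 pairs had r of 0.199, 0.136, 0.045 and 0.260.

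UPK2 had 4 of its 9 relations with a list or the component past the correction, against 3 for UPK1A, 1 for UPK3A and 0 for UPK3B, and the difference between uroplakins was not tested. With the mean z over the 13 transcription factors of urothelial differentiation it had r = 0.709 (permutation p = 1e-05, the smallest that 100000 resamples can give, adjusted 4.2e-04) and rho = 0.718 (permutation p = 3e-05, adjusted 0.00126). Without the 2 tumors farthest from the median of the list score, r was 0.616 (permutation p adjusted 0.0235). This was the relation of the 36 that passed the correction under all 8 settings run. UPK2 also had r = 0.595 with the vesicle transport genes, −0.464 with the basal and squamous genes and −0.542 with the first principal component of 637 genes, signed so that basal genes rise along it (permutation p = 6.5e-04, 0.0110 and 0.00248, adjusted 0.0137, 0.0460 and 0.0347). Their rho values were 0.533, −0.355 and −0.471 (permutation p adjusted 0.0627, 0.209 and 0.0869). The 637 genes are the part, in the table analysed here, of a longer list of luminal and basal genes by which the study grouped these tumors, so the list is not independent of these samples. Over the tumors the component had r = 0.880 with the mean z of the fibroblast genes and 0.328 with that of the basal and squamous genes, and the part of stromal genes in its relation with UPK2 was not tested. Without the 2 tumors farthest from the median of the list score or component, r of UPK2 was 0.445 with the transport genes. It was −0.314 with the basal and squamous genes and −0.441 with the component, and none then passed.

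In a fit of each of 24470 genes on UPK2 over the tumors, 0.331% of genes were higher with UPK2 and 0.756% lower at a limma adjusted p of at most 0.05. Among the 13 transcription factors, 3 were higher with UPK2 and 0 lower, with a median r of 0.317 against −0.013 over all genes. They were GRHL3, FOXA1 and GATA3. GRHL3, a grainyhead-like factor needed for the terminal differentiation of umbrella cells, had the highest r of all genes with a symbol, 0.861 (rho 0.827, limma adjusted p = 2.14e-05), and r was 0.857 without Da6. The 3 tumors with the lowest UPK2, JE, Da6 and Po, had GRHL3 values of −0.83, −0.62 and −0.87, and the tumor with the highest UPK2, Ab, had the highest GRHL3, 1.11. JE, Po and Da6 also had the lowest mean z over the epithelial genes, −1.10, −1.10 and −0.98. With that mean regressed out of both genes, a choice made after the data were seen, UPK2 and GRHL3 had r = 0.811. FOXA1, a pioneer factor of luminal cells, had r = 0.740 (rho 0.684, limma adjusted p = 0.00680). The others of the 5 highest were ZSWIM3 (r = 0.766), MYCL, a MYC family factor (0.754), and LNX1, a ubiquitin ligase (0.737).

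Some genes of other cell types were lower in the tumors with more UPK2. Of 8 endothelial genes, 4 were lower with UPK2 and 0 higher, with a median r of −0.559: the VEGF receptors FLT1 (r = −0.69, limma adjusted p = 0.0161) and KDR (−0.69, limma adjusted p = 0.0166), ROBO4 (−0.61) and PECAM1 (−0.60). Of 8 fibroblast genes 2 were lower, SFRP2 (−0.63) and PDGFRB (−0.61), with a median of −0.375. None of 12 leukocyte genes was called, with a median of −0.335. The lowest r among genes with a symbol belonged to TNFSF18, a ligand that costimulates T cells (−0.784, limma adjusted p = 0.00163), GLIS3, a zinc finger factor (−0.752), and STC1, a secreted glycoprotein (−0.740). All 11 epithelial genes had a positive r with UPK2, and with their mean regressed out UPK2 and the transcription factors had r = 0.593 (permutation p adjusted 0.0174).

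**Figure D4:**
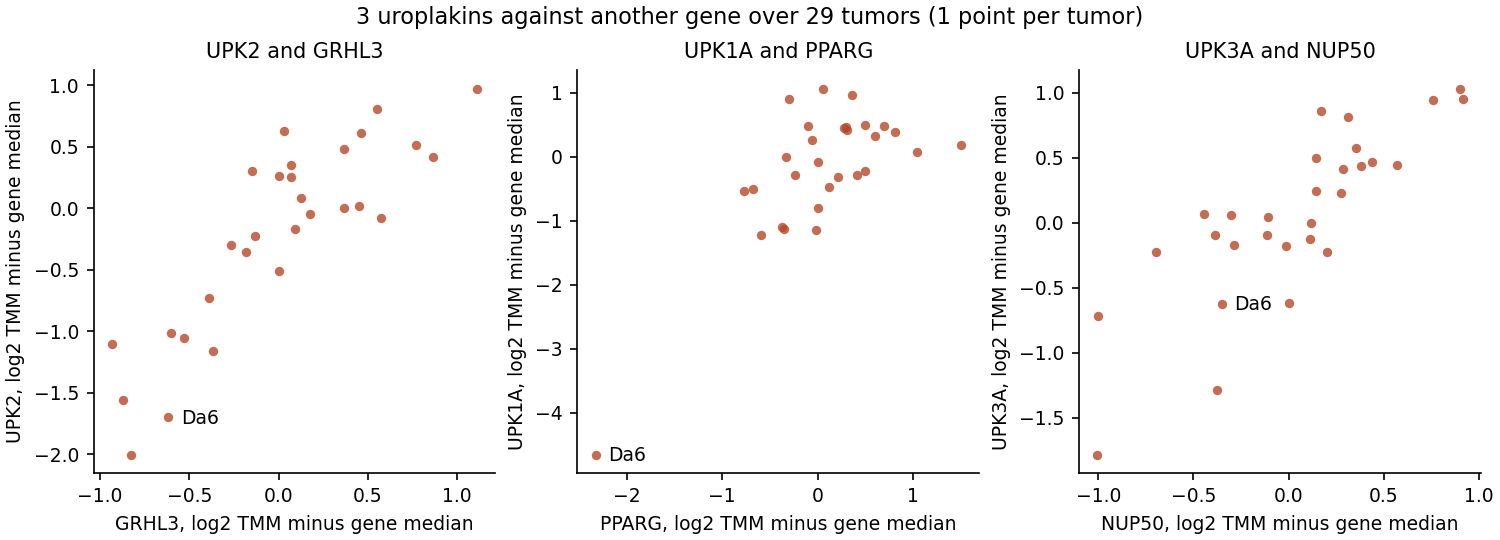
UPK2 against GRHL3 (left), UPK1A against PPARG (middle) and UPK3A against NUP50 (right), each as log2 TMM value minus the gene median, with 1 point per tumor and tumor Da6 marked. UPK2 and GRHL3 have r = 0.861, UPK1A and PPARG have r = 0.731 with Da6 and 0.444 without it, and UPK3A rises with NUP50 (r = 0.820).

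The relations of UPK1A leaned on tumor Da6. In the fit on UPK1A, 0.192% of genes were higher with it and 0.458% lower. The highest r belonged to GATA2, a zinc finger transcription factor (0.789, rho 0.587, limma adjusted p = 6.27e-04), MCHR1, a neuropeptide receptor (0.741), and PPARG, a nuclear receptor of luminal differentiation (0.731, rho 0.542, limma adjusted p = 0.00388). Da6 had the lowest value of GATA2, −2.42, and of PPARG, −2.33. Without it r was 0.588 for GATA2, 0.301 for MCHR1 and 0.444 for PPARG. Those of SH3GL2, an endocytic protein, and FPGT, an enzyme of fucose metabolism, moved less, from 0.722 to 0.671 and from 0.713 to 0.725. At the other end, ELL2, a transcription elongation factor, went from −0.763 to −0.441, SLC25A47 from −0.681 to −0.536, and CCDC117 from −0.663 to −0.289.

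UPK1A had r = 0.474 with the vesicle transport genes, 0.502 with the superficial cell genes and −0.513 with the basal and squamous genes (permutation p = 0.00561, 0.00738 and 0.00884, adjusted 0.0428, 0.0443 and 0.0448). Their rho values were 0.415, 0.300 and −0.331 (permutation p adjusted 0.135, 0.282 and 0.218). Without Da6 r was 0.324, 0.185 and −0.177, and none passed. Without the 2 tumors farthest from the median of the list score, r was 0.268, 0.171 and −0.172. Tumor Da6 held high levels of basal genes, with a mean z of 1.63 over that list, and of leukocyte genes, with a mean z of 2.24. It had the lowest mean z over the urothelial transcription factors, −1.09, and the third lowest over the epithelial genes, and their part in its uroplakin values was not tested. KRT13, a keratin of stratified epithelium, was the 1 of 12 basal and squamous genes that was lower with UPK1A (r = −0.63, limma adjusted p = 0.0376), and its r was −0.12 without Da6.

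After the correction UPK3A had fewer genes than UPK1A or UPK2: 8 of 24470 were higher with it (0.0327%) and 2 lower (0.00817%). At an unadjusted limma p of at most 0.05 it had 9.93% of genes, against 8.66% for UPK1A and 14.5% for UPK2. The difference between uroplakins was not tested. No gene of the urothelial lists was among those past the correction with UPK3A. Its one list relation past the correction was with the basal and squamous genes (r = −0.478, permutation p = 0.00959, adjusted 0.0448, with rho −0.405, permutation p = 0.0302, adjusted 0.141). Without the 2 tumors farthest from the median of the list score, r was −0.302. NUP50, a nucleoporin, was the closest gene (r = 0.820, rho 0.823, limma adjusted p = 5.33e-04), and r was 0.815 without Da6. MFSD9, a membrane transporter of the major facilitator family (0.769), EIF2AK1, the heme-regulated kinase (0.737), LMO4, a LIM-only cofactor (0.735), and GCC2, a golgin (0.733), came next. The lowest were SLC22A8, an organic anion transporter (−0.737, limma adjusted p = 0.0191), FRS3 (−0.672) and MPP3 (−0.669), of which the last 2 did not pass (limma adjusted p = 0.0682).

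Many of the genes closest to UPK3A lie on its own chromosome, an observation made after their values were seen. In the RefSeq annotation of the assembly UU_Cfam_GSD_1.0, used here for chromosomes and gene order only, UPK3A lies on chromosome 10. Of the 50 genes with the highest r with UPK3A, 21 (42.0%) lie on chromosome 10, which holds 490 of the 11145 genes ranked (4.40%). The same count was 1 of 50 for UPK1A on chromosome 1 (7.56% of genes), 6 for UPK2 on chromosome 5 (6.83%) and 4 for UPK3B on chromosome 6 (6.08%). Among the genes of the table, NUP50 lies second from UPK3A in gene order, and the gene between them, KIAA0930, had r = 0.539. On the other side FAM118A, the adjacent gene, had r = 0.399 and ATXN10, the fifth, r = 0.644. Not all neighbours followed: FBLN1 had r = −0.078, PHF21B 0.063 and PRR5 −0.209.

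The closest genes lay in some stretches of chromosome 10. With its genes in 10 blocks in order, the block with UPK3A held 3 of the 21 genes, the next 3 blocks held 4, 4 and 10, and the other blocks none. The median r was 0.332 in the fifth block, 0.111 in the block with UPK3A and −0.069 in the second. Over the whole chromosome it was 0.097, against 0.002 for genes elsewhere, and chromosomes 15 and 9 had medians as high (0.111 and 0.099). This median was not particular to UPK3A. On its own chromosome UPK2 had a median r of 0.104, against 0.010 elsewhere. The same medians were 0.067 and 0.0002 for UPK3B, and 0.011 and 0.004 for UPK1A. DNA copy number was not measured. With the mean of the chromosome 10 genes regressed out, UPK2 and UPK3A had r = 0.573 (permutation p adjusted 0.0142).

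**Figure D5:**
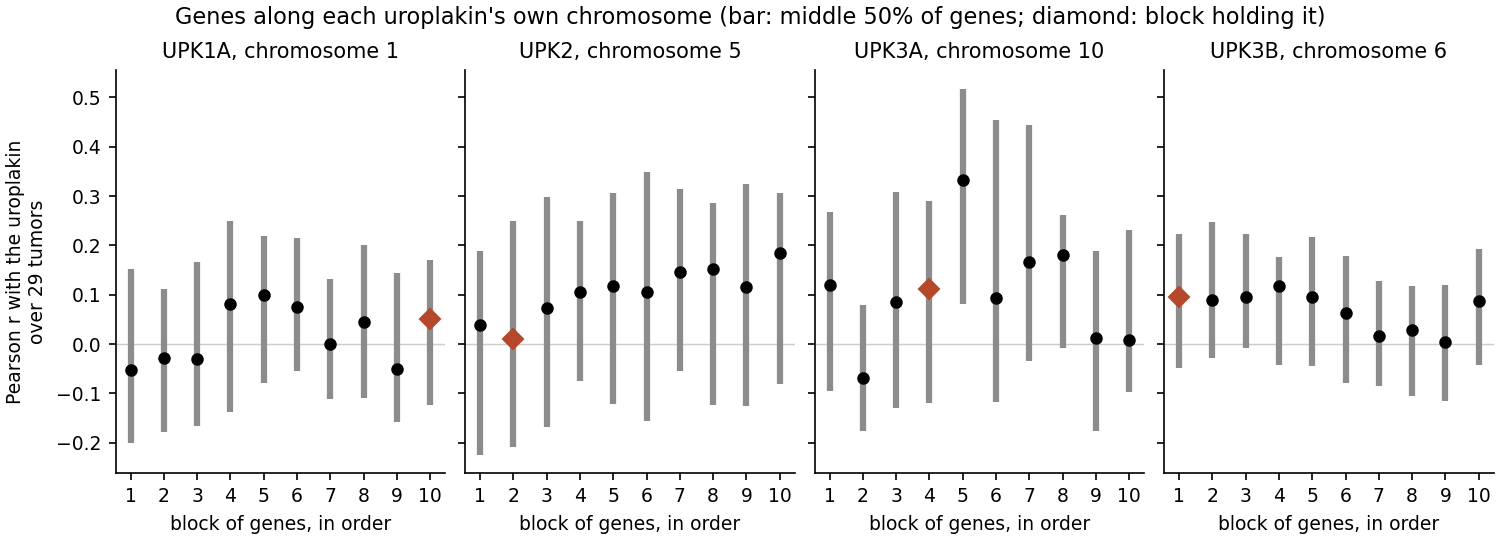
Pearson r over 29 tumors of genes with the uroplakin of their own chromosome, for 10 blocks of genes in order along it, with the median as a point, the middle 50% of genes as a bar and the block that holds the uroplakin as a diamond. The fifth block of chromosome 10 has the highest median r with UPK3A, 0.332.

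No gene passed the test with UPK3B. In the fit on UPK3B, 0 of 24470 genes passed in either direction (0.0%) in limma, and the smallest adjusted p was 0.727. With UPK3B, 1001 genes (4.09%) had an unadjusted limma p of at most 0.05, against 8.66% for UPK1A, 14.5% for UPK2 and 9.93% for UPK3A. Its highest r was with SH3GL3, an endophilin (0.611), ADGRL3, an adhesion receptor (0.608), ADCY8, an adenylyl cyclase (0.598), EXOC8, a subunit of the exocyst (0.596), and TBX10 (0.587), and its lowest with ERAP1, which trims peptides for MHC class I (−0.661). None of 9 relations of UPK3B with a list or the component passed the correction, with r between −0.162 and 0.254. The difference between UPK3B and the other uroplakins in this count was not tested.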

How the data were processed

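Libraries depleted of ribosomal RNA were sequenced from both ends on an Illumina HiSeq. The authors aligned the reads to CanFam 3.1 with COBWeb in Strand NGS, and normalized the quantified genes by TMM and, separately, by DESeq. The deposited values are log2 values minus the gene median over the 33 samples, as read from the values. Count models were not applied to them. The deposited tables, as analysed here, hold 25096 and 25139 genes in that order. These copies end early, and genes past their end were not analysed here, so that shares and ranks over all genes are over these copies, whose genes ranked by chromosome lie on 26 chromosomes.

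Groups came from the labels. Log2 values were used as they are, although linear ones had been allowed for. Genes above a shared lowest value in at least 4 samples were tested with limma 3.58.1 in R 4.3.3 (eBayes with trend, Benjamini-Hochberg over all genes, adjusted p at most 0.05 and at least 2-fold). The same tool fitted each gene on each uroplakin over the tumors, with no fold threshold. Correlations have permutation p-values from 100000 resamples. A list score is the mean z of its genes. For a list relation, the 2 farthest tumors are those farthest from the median of the list score or component. For a pair they are those farthest from the median of its first gene, in the order UPK1A, UPK2, UPK3A, UPK3B. The genes named for likeness are the 5 highest and 3 lowest by Pearson r, with a symbol and above the lowest value in at least 20 tumors. From each list, at most 6 genes with the largest differences or correlations are named, besides defining markers. Where fewer than 5 genes passed, all may be named. KRT5, TP63 and MSLN, defining markers of basal cells and mesothelium, were not analysed here, and 1 gene of the superficial cell list is counted but not reported by name. Highest correlation between samples was 0.945 and none were identical. Other steps ran in Python 3.11.15 (scipy 1.17.1, matplotlib 3.10.9, numpy 2.4.6, pandas 2.3.3). The scripts were tested on simulated data. The uroplakins, lists and tests were chosen with earlier results of these data known. Each sample is 1 dog. Alternatives were other filters, scalings and fits, each normal left out, and, chosen after the data were seen, values relative to epithelial genes or UPK2, tumor Da6 left out and chromosome 10 regressed out.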

Additional observations from a re-analysis of the deposited data

Results flagged for a closer look

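Normal D stood apart from the other 3 normals in 2 uroplakins by Dixon's test for 1 distant value, which chance meets in about 1 of 20 groups. UPK2 was −2.14 in normal D, and the gap to the nearest normal was 0.987 of the range of the 4 normals. UPK3A was −3.20 in normal D, with a gap of 0.896 of the range. Normal D was also the lowest normal for UPK1A (−1.27, gap 0.754) and UPK3B (−2.02, gap 0.592), which did not pass. It had the lowest mean over the epithelial genes and the highest over the smooth muscle genes, and the part of these in the uroplakin values was not tested.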

How the results depend on the processing

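UPK3A kept its direction and call in every setting but those relative to epithelial genes, where it was 0.09, and −0.12 without normal D. Relative to those genes, which are themselves higher in tumors, UPK1A (−1.73) and UPK2 (−1.72), near 0 before, were called lower, and UPK3B (−0.60) changed sign without passing the test. UPK3B lost its call at 0.86 in the DESeq-normalized table, which moved the median of all genes from −0.84 to −1.11, and at 1.12 relative to UPK2. With each normal left out in turn, the difference ranged from −0.31 to 0.23 for UPK1A, −0.58 to 0.26 for UPK2, 1.38 to 2.06 for UPK3A and 0.87 to 1.37 for UPK3B. Genes called higher numbered 2615, and 1377 in the DESeq-normalized table, 78 relative to epithelial genes and 1541 relative to UPK2. Genes called lower numbered 11206, and 5543 under the stricter filter, which drops genes at their lowest value in most samples, and 19841 relative to epithelial genes. UPK1A and UPK2 (r = 0.487) had 0.385 by Spearman, 0.293 without the 2 farthest tumors, 0.420 with epithelial content regressed out and 0.350 without Da6. UPK2 and UPK3A (r = 0.515) had 0.478, 0.444 and 0.483 by Spearman, without the 2 farthest tumors and without Da6, and 0.586 with epithelial content regressed out, which still passed. The 8 relations past the correction fell to 1 by Spearman, without the 2 farthest tumors, with epithelial content regressed out and without Da6. The SD of UPK1A was 0.70 by the scaled median absolute deviation. No paired analysis was possible because normals and tumors came from different dogs and share no numbers. With 4 normals, and the total count unknown, small differences were not detectable, and p-values measure the spread between these dogs.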
